A study of Arabidopsis thaliana with 8 samples.

Results

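The genes described here are the circadian clock and photoperiod genes of Arabidopsis thaliana, 38 of the 27655 loci in the deposited expression table. The set is defined by names and roles: the morning MYB factors CCA1 and LHY, the pseudo-response regulators, GI with the FKF1 family, the evening complex, the REVEILLE (RVE), LNK and CDF families, CO and its homologues, PIF4, PIF5, GRP7, GRP8, CHE and JMJD5. The study sequenced mRNA from shoot apices of a knockdown line and of wild type, each at day 16 and at day 10, with 2 libraries per group and 8 in all. The knockdown line carries pFD::amiR-PECT1, an artificial microRNA against PECT1 driven by the promoter of FD. PECT1 is an enzyme of phosphatidylethanolamine synthesis, and FD is a bZIP factor of the shoot apex. All 4 groups shared 1 sampling time, ZT 8 (8 h after lights on), and all plants grew in short days at 23 °C on half-strength MS plates. The comparisons ask which of these transcripts differ between the genotypes at each age, and between the ages within a genotype, at that single time of day.

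The plant clock is a loop of transcriptional repressors that peak at successive times of day. CCA1 and LHY are made around dawn and repress evening genes through a promoter sequence called the evening element. The pseudo-response regulators follow in a wave, from PRR9 in the morning through PRR7 and PRR5 to TOC1 at dusk, and repress CCA1 and LHY in turn. The evening complex of ELF3, ELF4 and LUX closes the loop, and the photoperiod branch (GI, FKF1, the CDF repressors and CO) reads the clock against light to time flowering through FT. A single sampling time gives the level of each transcript at that phase, and no amplitude, period or phase.

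The evening element (AAAATATCT) and the G-box (CACGTG) were searched on both strands in the 500 bases before each annotated gene start, the evening element because it is the repression site of CCA1 and LHY and the G-box because PIF factors bind it. Windows of 250 bases are shown for 5 genes, since they span the range of levels found at ZT 8: the highest transcript (GRP7), 3 evening genes (TOC1, LUX, BOA) and the lowest transcript (PRR9). Sequences come from the RefSeq TAIR10.1 assembly and run 5′ to 3′ on the strand of the gene, ending at the base before its annotated start. Capitals mark evening elements in either orientation and G-boxes, and no annotated exon lies in any of the 5 windows. They cover chr5:24674713-24674962 (plus strand) for TOC1, chr3:17182792-17183041 (plus) for LUX, chr5:24003638-24003887 (plus) for BOA, chr2:9266558-9266807 (minus) for GRP7 and chr2:19232357-19232606 (plus) for PRR9.
TOC1: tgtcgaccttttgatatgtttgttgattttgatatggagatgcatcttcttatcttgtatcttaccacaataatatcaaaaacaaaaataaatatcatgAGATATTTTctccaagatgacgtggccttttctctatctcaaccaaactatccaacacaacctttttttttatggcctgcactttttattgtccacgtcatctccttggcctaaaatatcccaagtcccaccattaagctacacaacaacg
LUX: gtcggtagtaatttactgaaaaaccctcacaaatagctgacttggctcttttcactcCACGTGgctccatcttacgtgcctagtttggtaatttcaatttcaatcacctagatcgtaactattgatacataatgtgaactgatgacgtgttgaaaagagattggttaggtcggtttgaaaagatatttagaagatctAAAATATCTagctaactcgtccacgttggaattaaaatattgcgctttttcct
BOA: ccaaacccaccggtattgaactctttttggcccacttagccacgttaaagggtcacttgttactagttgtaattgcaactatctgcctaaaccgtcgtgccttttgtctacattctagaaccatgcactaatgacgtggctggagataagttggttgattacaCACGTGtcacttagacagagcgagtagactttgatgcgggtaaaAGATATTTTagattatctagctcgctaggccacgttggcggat
GRP7: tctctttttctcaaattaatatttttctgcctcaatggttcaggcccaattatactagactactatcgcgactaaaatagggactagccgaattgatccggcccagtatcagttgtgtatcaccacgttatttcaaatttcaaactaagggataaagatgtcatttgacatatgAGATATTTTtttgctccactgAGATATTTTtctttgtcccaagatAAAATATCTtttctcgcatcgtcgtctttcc
PRR9: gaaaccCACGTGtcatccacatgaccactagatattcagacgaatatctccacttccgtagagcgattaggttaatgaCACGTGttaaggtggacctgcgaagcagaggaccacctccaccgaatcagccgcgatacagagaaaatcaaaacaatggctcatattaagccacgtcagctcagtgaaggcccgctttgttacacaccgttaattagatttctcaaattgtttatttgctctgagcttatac

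GRP7 held 3 evening elements, ending 68, 47 and 23 bases before its start, and all distances here are counted from that end of the motif. TOC1 held 1 at 143 bases, LUX 1 at 45 and BOA 1 at 35, and LUX and BOA also held a G-box, at 188 and 82 bases. PRR9 held no evening element and 2 G-boxes, at 239 and 167 bases. Over the 500-base windows, 9 of the 38 genes (23.7%) had an evening element, against 1218 of 27443 protein-coding genes (4.44%). Besides those 4, the carriers were GRP8, FKF1, PRR5, RVE7 and COL2. G-boxes were in 11 of 38 (28.9%), against 9.35% of all genes. The CCA1-binding site AAAAATCT, which neither contains nor lies within the evening element, was in 7 of 38 (18.4%), against 12.5% of all genes. A match describes the letters in the window only.

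**Figure D1:**
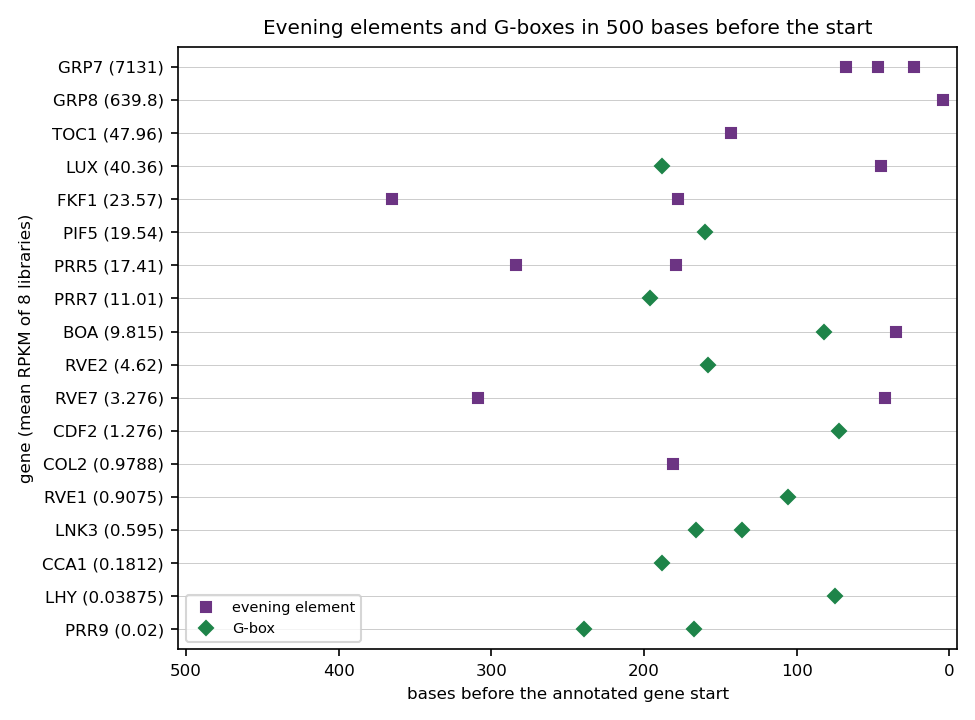
Positions of evening elements (squares) and G-boxes (diamonds) in the 500 bases before the annotated start of the 18 clock and photoperiod genes that hold either, plotted by distance from the start in bases. Genes run from the highest mean level at the top (GRP7) to the lowest (PRR9), with the mean RPKM of 8 libraries in parentheses. Evening elements sit mainly in the upper rows and G-boxes more often in the lower rows.

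Expression is given as RPKM, reads per kilobase of exon and per M reads, so levels can be set beside each other between genes. By estimate each library held 15.46 to 18.16 M reads, with 16180 to 16883 loci at 1 RPKM or more. The targeted gene PECT1 measured 34.4 to 37.1 RPKM in the 4 knockdown libraries and 39.2 to 41.3 RPKM in the 4 wild-type libraries, a log2 fold change of -0.16 ± 0.103 (SE) that did not pass limma's test (adjusted p = 0.540). After median-of-ratios scaling, which aligns the libraries on their typical gene, PECT1 overlapped, with 34.5 to 39.2 RPKM in knockdown and 37.9 to 42.5 RPKM in wild-type libraries. Of 5 shoot meristem markers 3 averaged at least 1 RPKM (STM, BP and CLV1), CLV3 and WUS lay at 0.00 to 0.72 RPKM, and the 5 root markers summed to 0.00 to 0.31 RPKM. The 5 leaf mesophyll markers summed to 22346 to 29742 RPKM and the 5 vascular markers to 49.7 to 74.99 RPKM over the 8 libraries. On the deposited scale these sums moved with the comparisons. Divided by the libraries' median-of-ratios factors, the mesophyll sums overlapped between genotypes at day 16 and between ages in the knockdown line. On the deposited scale the mesophyll sum at day 16 was 22346 to 23590 RPKM in knockdown and 24281 to 25978 RPKM in wild type. The meristem sum was 40.7 to 47.7 RPKM in knockdown and 37.5 to 39.7 RPKM in wild type. Neither sum overlapped on that scale. At day 10 both sums overlapped, with mesophyll at 24902 to 29742 RPKM in knockdown and 28435 to 29536 RPKM in wild type and meristem at 28.3 to 37.4 RPKM in knockdown and 23.9 to 31.0 RPKM in wild type. In each genotype the mesophyll sum was thus lower and the meristem sum higher at day 16 than at day 10, without overlap on that scale. Single markers did not all follow their sum. At day 16 STM averaged 17.4 RPKM in knockdown and 12.5 RPKM in wild type and BP 9.1 and 7.0 RPKM, but CLV1 17.3 and 18.7 RPKM. Between the ages RBCS1A did not overlap in either genotype, but LHCB1.3 overlapped in both. The part of these sums in the genotype and age results below was not tested. In such bulk samples, fewer cells of a type and less RNA per cell cannot be told apart. One library stood apart: knockdown day 16 replicate 1 had a mitochondrial sum of 264 RPKM, against 106 to 159 RPKM in the other 7, and the smallest scaling factor (0.878, against 0.929 to 1.07).

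At ZT 8 the evening complex genes ELF4 and LUX, TOC1 and the output genes GRP7 and GRP8 stood high, and the dawn genes CCA1, LHY and PRR9 lay near the lower limit of the data. Mean levels over the 8 libraries ran from 7131 RPKM for GRP7 to 0.02 RPKM for PRR9. Of the 38 transcripts 3 averaged at least 100 RPKM, 13 lay between 10 and 100, 14 between 1 and 10, and 8 below 1. GRP7, GRP8, ELF4 and CHE, the top 4, had ranges over the 8 libraries that did not overlap, and from CHE downward the ranges of every pair of neighbours in the order overlapped.

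The dawn genes carried few reads. CCA1 (AT2G46830) was at 0.21 and 0.00 RPKM in day 16 knockdown, 0.33 and 0.04 in day 16 wild type, 0.13 and 0.11 in day 10 knockdown, and 0.17 and 0.46 in day 10 wild-type libraries. LHY (AT1G01060), its partner, did not exceed 0.20 RPKM in any library, and PRR9 (AT2G46790), the earliest pseudo-response regulator, was listed at 0 in 6 of 8 libraries. RVE8 (AT3G09600), a morning MYB-like activator of evening genes, lay at 0.00 to 0.26 RPKM. By estimate, no library held more than 22.3 reads of CCA1, 11.8 of LHY, 10.8 of RVE8 or 4.05 of PRR9. These 4 genes, LNK3 (0.24 to 1.20 RPKM) and CO (0.18 to 0.93 RPKM) did not reach 1 RPKM in 2 libraries, so 32 of the 38 genes were tested. CO (AT5G15840), the photoperiod activator of FT, had at most 46.2 estimated reads in a library.

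The abundant end held the output genes and the evening complex. GRP7 (AT2G21660), a glycine-rich RNA-binding protein of the clock's output, was at 7636 and 5433 RPKM in day 16 knockdown, 5574 and 8603 in day 16 wild type, 7694 and 8090 in day 10 knockdown, and 8034 and 5982 in day 10 wild-type libraries. Its paralogue GRP8 averaged 640 RPKM (389 to 795), and how the authors' counting split reads between similar genes was not given in the sources used here. ELF4 averaged 125 RPKM (92.2 to 152), LUX, the DNA-binding subunit, 40.4 (34.6 to 49.0), and ELF3, the scaffold, 11.1 (6.68 to 14.8). Among the pseudo-response regulators TOC1 led with 48.0 RPKM (33.8 to 57.2), followed by PRR5 at 17.4, PRR7 at 11.01 and PRR3 at 7.60. CHE (AT5G08330), a TCP factor that represses CCA1, averaged 65.1 RPKM, and JMJD5, a jumonji-domain protein, 37.0. The evening element carriers had a median mean level of 23.6 RPKM, with 6 of 9 at 10 RPKM or more. The 9 genes with a G-box and no evening element had a median of 0.908 RPKM, with 2 of 9 at 10 RPKM or more, and the 20 with neither had 6.75 RPKM. This is a description of 38 chosen genes, without a test.

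**Figure D2:**
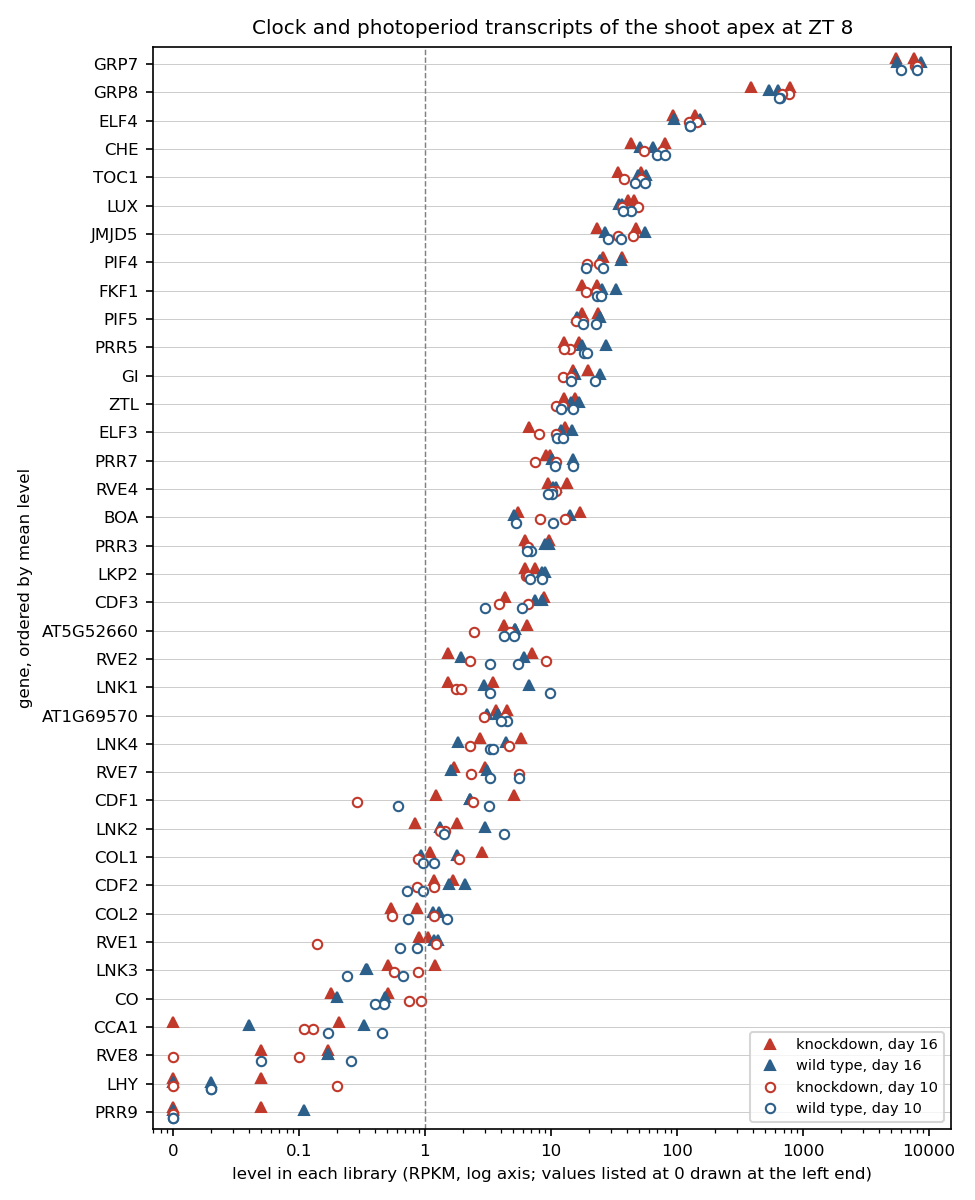
Level of each of the 38 transcripts in the 8 libraries (RPKM, log axis; values listed at 0 are drawn at the left end), 1 row per gene ordered by mean, with triangles for day 16, circles for day 10, red for knockdown and blue for wild type. The dashed line marks 1 RPKM; the 8 lowest genes, from COL2 to PRR9, average below it, and red and blue symbols lie interleaved in most rows.

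Between the genotypes, no clock or photoperiod gene passed the test at either age. Genes were tested with limma on log2(RPKM + 1), two-sided, with Benjamini-Hochberg adjustment over all 17467 genes that had at least 1 RPKM in at least 2 libraries, and passed at an adjusted p under 0.05. Of the 32 tested clock genes 0 passed at day 16, against 0.115% of all tested genes, and 0 passed at day 10, against 0.0744%. For the mean of both ages 0 of 32 passed, against 0.246% of all. At an unadjusted p under 0.05 there were 2 clock genes at day 16 (background 6.37%), 1 at day 10 (6.66%) and 3 for the mean of both ages (12.0%), shares no larger than those of all genes. Separate cultures or plants are not stated in the labels for the libraries of a group, so these p-values measure the spread between libraries, which may be technical.

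The 4 smallest p-values were those of PRR5, FKF1, ELF3 and LKP2 at day 16, of LNK1, PRR5, PRR7 and GI at day 10, and of PRR5, LNK1, FKF1 and PRR7 for the mean of both ages, each with a negative fold change in the knockdown line. PRR5 (AT5G24470), a repressor of CCA1 and LHY that follows PRR7 in the wave, had 12.7 and 16.6 RPKM in day 16 knockdown libraries, against 27.4 and 17.8 RPKM in day 16 wild type. At day 10 it had 14.3 and 12.7 RPKM in knockdown libraries, against 18.5 and 19.4 RPKM in wild type. All 4 knockdown libraries lay below all 4 wild-type libraries, which held for PRR5 alone among the 32, against 4.93% of all tested genes, and held for PRR5 alone after median-of-ratios scaling as well (background 3.83%). None of the 32 had all 4 knockdown libraries above all 4 wild-type libraries, on the deposited scale (1.74% of all genes) or after that scaling (3.81%). The log2 fold change was -0.52 ± 0.162 (SE) for the mean of both ages, with a 95% interval of -0.88 to -0.16 and a limma adjusted p of 0.282. It was -0.58 ± 0.229 at day 16 (limma adjusted p = 0.762) and -0.46 ± 0.229 at day 10 (limma adjusted p = 0.752). The day 16 value was -0.28 without wild-type day 16 replicate 1 and -0.88 without wild-type day 16 replicate 2.

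The other regulators of the wave differed less. PRR7 (AT5G02810) had 9.92 and 9.06 RPKM in day 16 knockdown, against 14.8 and 10.2 RPKM in day 16 wild type. At day 10 PRR7 had 10.9 and 7.47 RPKM in knockdown libraries, against 10.8 and 14.9 RPKM in wild type, where the groups overlapped. Its log2 fold change for the mean of both ages was -0.40 ± 0.182 (SE; limma adjusted p = 0.429), and at day 10 it was -0.45 ± 0.257 (limma adjusted p = 0.763), or -0.20 without knockdown day 10 replicate 2 and -0.23 without wild-type day 10 replicate 2. TOC1 (AT5G61380) had 33.8 and 51.6 RPKM in day 16 knockdown, against 48.8 and 57.2 RPKM in wild type, and at day 10 37.7 and 52.1 RPKM in knockdown, against 46.6 and 55.9 RPKM in wild type. The knockdown and wild-type ranges of TOC1 thus overlapped at both ages. PRR3 had fold changes of -0.23 at day 16 and -0.03 at day 10. The fold changes of all 4 tested pseudo-response regulators were negative at both ages, also after median-of-ratios scaling. With quantile normalization all but PRR3 were negative at day 10. On the deposited scale 67.5% of all genes were below 0 at day 16 and 52.2% at day 10. After median-of-ratios scaling the shares were 48.5% and 49.7%, and with quantile normalization 51.6% and 50.3%. Some of the negative signs rested on 1 library. Without knockdown day 16 replicate 1, PRR3 in the other knockdown library (9.70 RPKM) lay above wild type (8.91 and 9.64 RPKM). Without knockdown day 10 replicate 1, TOC1 in the other knockdown library (52.1 RPKM) lay above the wild-type mean (51.2 RPKM).

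FKF1 (AT1G68050) is a blue-light receptor and F-box protein that removes CDF repressors together with GI. It had 23.3 and 17.5 RPKM in day 16 knockdown libraries, against 32.8 and 25.3 RPKM in wild type. At day 10 it had 19.0 and 22.7 RPKM in knockdown libraries, against 23.2 and 24.9 RPKM in wild type. On the deposited scale the groups did not overlap at either age. The highest day 16 knockdown library still lay above the lowest day 10 wild-type library. After median-of-ratios scaling FKF1 overlapped at day 16, with 26.5 and 16.3 RPKM in knockdown and 30.7 and 23.5 RPKM in wild type. At day 16 its log2 fold change was -0.49 ± 0.203 (SE), with an interval of -0.94 to -0.04 (limma adjusted p = 0.764), and -0.35 ± 0.144 for the mean of both ages (limma adjusted p = 0.393). Without knockdown day 16 replicate 2 the day 16 value was -0.30, and without wild-type day 16 replicate 1 it was -0.31.

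GI (AT1G22770), a scaffold for FKF1 and ZTL, had 15.0 and 19.8 RPKM in day 16 knockdown, against 24.5 and 15.6 RPKM in wild type, which overlapped. At day 10 it had 12.5 and 14.4 RPKM in knockdown, against 14.5 and 22.5 RPKM in wild type, a fold change of -0.41 ± 0.270 (SE; limma adjusted p = 0.778) that was -0.11 without wild-type day 10 replicate 2 and -0.70 without wild-type day 10 replicate 1. LKP2 (AT2G18915), an FKF1 homologue, had 6.23 and 7.49 RPKM in day 16 knockdown, against 8.48 and 8.98 RPKM in wild type, with a fold change of -0.31 ± 0.206 (SE; limma adjusted p = 0.834), or -0.20 without knockdown day 16 replicate 1. LKP2 shares 370 exon bases with a non-coding RNA on the opposite strand. ZTL (AT5G57360), the F-box protein that targets TOC1 and PRR5, had fold changes of -0.14 at day 16 and -0.19 at day 10. All 4 genes of this group had negative fold changes at both ages under the deposited scale, median-of-ratios scaling and quantile normalization, where the shares of all genes below 0 were 67.5%, 48.5% and 51.6% at day 16 and 52.2%, 49.7% and 50.3% at day 10. GI at day 16 had a fold change of -0.17, with an interval of -0.77 to 0.43. The sign of GI at day 16 rested on wild-type day 16 replicate 1 (24.5 RPKM). The other wild-type library, at 15.6 RPKM, lay below the mean of the 2 knockdown libraries (17.4 RPKM). For ZTL at day 16 no fit without a single library was read, so whether its sign rests on 1 library is not shown.

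The LNK proteins are coactivators that work with RVE8. LNK1 had the largest negative fold change of the 32 genes at each age. It had 1.53 and 3.47 RPKM in day 16 knockdown libraries, against 6.71 and 2.92 RPKM in wild type, which overlapped. At day 10 it had 1.76 and 1.95 RPKM in knockdown libraries, against 3.30 and 9.90 RPKM in wild type. The 2 wild-type libraries of day 10 thus lay 3 times apart, and both lay above the knockdown libraries. The log2 fold change at day 10 was -1.26 ± 0.469 (SE), with an interval of -2.31 to -0.21 and a limma adjusted p of 0.686, and without wild-type day 10 replicate 2 it was -0.59. For the mean of both ages it was -0.99 ± 0.332 (limma adjusted p = 0.311), or -0.65 without that library. LNK1 (AT5G64170, chr5:25672466-25676823, minus strand, TAIR10.1) shares 245 exon bases with AT5G64160 on the opposite strand, which had 17.5 and 19.5 RPKM in day 10 knockdown and 17.9 and 19.2 RPKM in day 10 wild-type libraries; whether counting used strand was not given in the sources used here.

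LNK2 had fold changes of -0.44 at day 16 and -0.58 at day 10, and LNK4 of 0.36 at day 16 and -0.02 at day 10. Their values in single libraries ran from 0.83 to 4.23 RPKM for LNK2 and from 1.82 to 5.74 RPKM for LNK4. At day 16 LNK2 had 1.79 and 0.83 RPKM in knockdown, against 3.02 and 1.33 RPKM in wild type. At day 10 it had 1.45 and 1.32 RPKM in knockdown, against 1.42 and 4.23 RPKM in wild type. The fold change of LNK2 thus rested mainly on 1 wild-type library at each age, replicate 1 at day 16 and replicate 2 at day 10. LNK4's sign at day 10 turned under median-of-ratios scaling and quantile normalization.

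The evening complex showed no common direction. ELF3 (AT2G25930) had 6.68 and 12.9 RPKM in day 16 knockdown libraries, against 14.8 and 12.1 RPKM in wild type, with a fold change of -0.48 ± 0.285 (SE; limma adjusted p = 0.817). That value was -0.05 without knockdown day 16 replicate 1 and -0.90 without knockdown day 16 replicate 2. At day 10 it had 8.00 and 11.05 RPKM in knockdown libraries, just below the 11.13 and 12.5 RPKM of wild type. LUX (AT3G46640) had 40.5 and 45.5 RPKM in day 16 knockdown, against 34.6 and 36.6 RPKM in wild type, on the deposited scale the only one of the 32 tested genes whose day 16 knockdown libraries both lay above wild type (8.39% of all genes did; AT1G69570 and RVE4 joined it after median-of-ratios scaling, where 18.1% did), with a fold change of 0.26 and an interval of -0.14 to 0.66. At day 10 LUX overlapped, with 49.0 and 36.6 RPKM in knockdown and 42.8 and 37.2 RPKM in wild-type libraries. ELF4 (AT2G40080) had 139 and 92.2 RPKM in day 16 knockdown, against 94.2 and 152 RPKM in wild type, which overlapped.

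BOA (AT5G59570), a close homologue of LUX, varied more within groups than between them. It had 5.45 and 16.98 RPKM in day 16 knockdown libraries, against 5.08 and 14.3 RPKM in wild type, and at day 10 8.13 and 12.9 RPKM in knockdown, against 10.4 and 5.33 RPKM in wild type. Its fold change at day 16 was 0.16, with an interval of -1.04 to 1.36, and its sign depended on single libraries: it was -0.58 without knockdown day 16 replicate 2 and -0.50 without wild-type day 16 replicate 1. BOA is the only one of the 38 genes in the authors' deposited tables of changed genes, and the tables of higher genes at day 10 and lower genes at day 16, with 1.16% and 0.770% of all loci, list none. The authors' deposited table of higher genes at day 16, which lists 0.763% of all loci, gives it a fold of 17.23 (p = 0.00193), while the ratio of its mean RPKM was 1.16. The locus after it in ID order, AT5G59580, which shares 1679 exon bases with BOA on the opposite strand, had 0.35 and 1.27 RPKM in day 16 knockdown and 0.09 and 0.00 RPKM in wild type, a ratio of 18.0. In the same way, the authors' deposited table of lower genes at day 10, with 1.20% of all loci, lists AT5G64160 at a fold of -3.45 (p = 0.000118); its own wild-type to knockdown ratio was 1.00 and that of the next locus, LNK1, was 3.56.

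The remaining families had fold changes between -0.40 and 0.29 at both ages, and all of their intervals included 0. Among the RVE genes, RVE4 (AT5G02840), an activator of evening genes, lay between 9.45 and 13.5 RPKM in all 8 libraries, with fold changes of 0.08 at day 16 and 0.10 at day 10. RVE1, RVE2, RVE7 and AT5G52660, a homeodomain-like gene, had fold changes of -0.17 to 0.02 at day 16 and -0.34 to 0.13 at day 10. Of the CDF repressors, CDF1 (AT5G62430) had 1.22 and 5.14 RPKM in day 16 knockdown, against 2.29 and 2.28 RPKM in wild type, and at day 10 0.29 and 2.39 RPKM in knockdown, against 0.61 and 3.20 RPKM in wild type. CDF1 therefore overlapped at both ages, with fold changes of 0.17 and -0.31. CDF2, CDF3 and AT1G69570, a Dof-type zinc finger gene, had fold changes of -0.31 to 0.20 at day 16 and -0.19 to 0.22 at day 10. Of the homologues of CO, COL2 had 0.86 and 0.54 RPKM in day 16 knockdown, against 1.3 and 1.16 RPKM in wild type, and at day 10 0.55 and 1.18 RPKM in knockdown, against 0.74 and 1.5 RPKM in wild type. Its groups overlapped only at day 10, and its fold changes were -0.40 ± 0.301 at day 16 (SE; limma adjusted p = 0.842) and -0.18 at day 10. COL2 shares 506 exon bases with AT3G02390 and 212 with AT3G02370, both on the opposite strand. In day 16 knockdown AT3G02390 had 0.00 and 0.11 RPKM, against 0.66 and 0.79 RPKM in wild type. AT3G02370 had 0.31 and 0.63 RPKM there, against 1.45 and 1.92 RPKM in wild type. The part of these overlaps in the COL2 values was not tested. COL1 overlapped at both ages, with fold changes of 0.29 at day 16 and 0.16 at day 10. COL1's exons lie wholly within a non-coding RNA of the opposite strand, sharing 1698 bases.

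The growth-promoting bHLH factors PIF4 and PIF5 had fold changes of 0.05 and 0.03 at day 16 and of -0.05 and -0.25 at day 10. PIF4 (AT2G43010) had 26.1 and 36.3 RPKM in day 16 knockdown, against 35.7 and 24.6 RPKM in wild type, so both libraries of each genotype covered about the same range. GRP7, GRP8, CHE and JMJD5 had fold changes between -0.22 and 0.29 at both ages. GRP7 and GRP8 were positive at day 10 and negative at day 16, where their sign turned under median-of-ratios scaling, and GRP7 was negative at day 10 under quantile normalization.

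Over the 32 tested genes the median log2 fold change was -0.12 at day 16, against -0.11 for all tested genes, and -0.18 at day 10, against -0.02 for all. Single libraries moved these medians. Without knockdown day 16 replicate 1 the day 16 median was -0.04 (all genes 0.01), and without knockdown day 16 replicate 2 it was -0.27 (all genes -0.24). Without wild-type day 10 replicate 2 the day 10 median was -0.02 (all genes 0.02), without knockdown day 10 replicate 2 it was -0.07 (all genes -0.07), and without knockdown day 10 replicate 1 it was -0.09 (all genes 0.04). Fold changes were negative for 20 of 32 at day 16, 21 of 32 at day 10 and 20 of 32 for the mean of both ages, where 67.5%, 52.2% and 61.1% of all genes were negative. With median-of-ratios scaling the medians were 0.01 at day 16, against 0.01 for all genes, and -0.16 at day 10, against 0.00 for all. Counted by groups that did not overlap, 6 of the 32 tested genes were lower at day 16 (COL2, FKF1, LKP2, PRR5, PRR7 and RVE1; background 25.7%) and 6 at day 10 (ELF3, FKF1, GI, LKP2, LNK1 and PRR5; background 21.0%). Higher without overlap were LUX at day 16 and GRP8 and RVE4 at day 10 (background 19.9%). After median-of-ratios scaling the lists changed. Lower were 4 at day 16 (COL2, LKP2, PRR5 and RVE1, background 17.7%) and 6 at day 10 (ELF3, FKF1, GI, LNK1, PRR5 and ZTL, background 20.7%). Higher were 3 at day 16 (AT1G69570, LUX and RVE4, background 18.1%) and ELF4 at day 10 (background 21.2%). These shares do not exceed those of all genes. The 95% intervals had a median half-width of 0.60 log2 units at each age, and 20 of 32 at day 16 and 22 of 32 at day 10 lay wholly between -1 and 1. For those genes a change beyond 2-fold on the log2(RPKM + 1) scale lies outside the interval; for the others these libraries give no such bound.

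**Figure D3:**
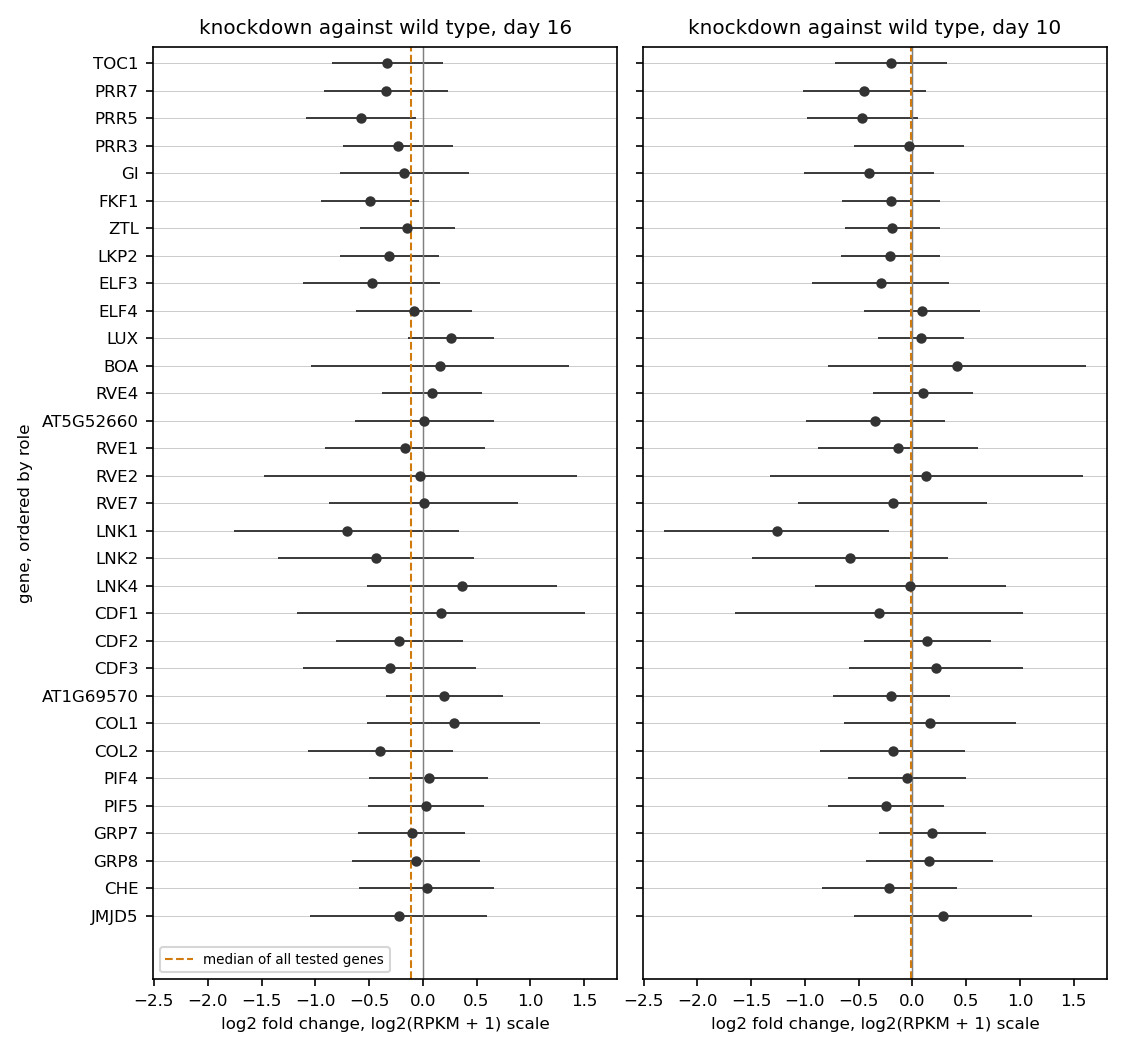
Log2 fold change of the 32 tested genes in knockdown against wild type at day 16 (left) and day 10 (right), on the log2(RPKM + 1) scale, with 95% intervals from limma as bars and genes ordered by role. The dashed line is the median of all tested genes (-0.11 at day 16, -0.02 at day 10); the intervals of PRR5 and FKF1 at day 16 and of LNK1 at day 10 are the ones that do not reach 0, before adjustment.

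The genotype effect itself was not found to depend on age. In the interaction fit 0 of 17467 genes passed with limma, 288 (1.65%) had an unadjusted p under 0.05, and 0 of these were clock genes. The interaction was negative for 17 of 32 clock genes and for 65.6% of all genes. The interval of the difference in effect (day 16 minus day 10) ran from -0.84 to 0.61 for PRR5 and from -0.93 to 2.04 for LNK1.

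Between the ages no clock gene passed in either genotype. In the knockdown line 0 of 32 passed, against 0.269% of all tested genes, and in wild type 0 of 32, against 0.223%. At an unadjusted p under 0.05 there were 0 clock genes in the knockdown line (background 8.55%) and 1 in wild type (7.46%). Age effects were negative for 13 of 32 in each genotype, against 50.8% of all genes in the knockdown line and 33.6% in wild type. The smallest p in the knockdown line was that of PIF4, which had 26.1 and 36.3 RPKM at day 16 and 23.9 and 19.4 RPKM at day 10, a log2 fold change of 0.49 ± 0.247 (SE; limma adjusted p = 0.630), or 0.26 without knockdown day 16 replicate 2. In wild type PIF4 had 35.7 and 24.6 RPKM at day 16 and 19.2 and 26.0 RPKM at day 10, where the ages overlapped.

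The smallest p in wild type was that of CDF2 (AT5G39660), a repressor of CO and FT, which had 1.56 and 2.07 RPKM at day 16 and 0.96 and 0.72 RPKM at day 10, a log2 fold change of 0.61 ± 0.264 (SE; limma adjusted p = 0.642). In the knockdown line CDF2 had 1.18 and 1.66 RPKM at day 16 and 0.87 and 1.19 RPKM at day 10, which overlapped. Of the 4 CDF genes among the 32, 0 had a negative age effect in the knockdown line (50.8% of all genes did). In wild type 1 had (33.6% of all genes). These counts held under median-of-ratios scaling (all genes 50.7% and 49.5%) and quantile normalization (54.2% and 51.4%). The knockdown count did not hold without single libraries. Without knockdown day 16 replicate 2, CDF3 at day 16 (4.36 RPKM) lay below its day 10 mean (5.265 RPKM). Without knockdown day 10 replicate 2, AT1G69570 at day 10 (4.33 RPKM) lay above its day 16 mean (4.10 RPKM). Over the 32 genes the median age effect was 0.08 in the knockdown line, against -0.01 for all genes, and 0.10 in wild type, against 0.10 for all. The knockdown median was 0.30 without knockdown day 16 replicate 1 (all genes 0.13), 0.03 without knockdown day 16 replicate 2 (all genes -0.13) and 0.12 without knockdown day 10 replicate 1 (all genes -0.06). The wild-type median was 0.00 without wild-type day 10 replicate 1 (all genes 0.07), 0.16 without wild-type day 10 replicate 2 (all genes 0.14) and 0.17 without wild-type day 16 replicate 2 (all genes 0.10). Without knockdown day 16 replicate 1, the library with the high mitochondrial sum, the smallest adjusted p of a clock gene for age in the knockdown line was 0.0908.

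The clock genes differed more between the 2 libraries of a group than most genes did. For each tested gene the absolute difference of the 2 libraries was taken on the log2(RPKM + 1) scale. Its median over the 32 clock genes was 0.54 in day 16 knockdown, 0.36 in day 16 wild type, 0.39 in day 10 knockdown and 0.27 in day 10 wild type. Over all tested genes the medians were 0.32, 0.21, 0.21 and 0.22 in the same order. Because low genes scatter more, the comparison was repeated for genes with a mean of at least 5 RPKM, 20 of them clock genes. There the medians for clock genes were 0.48, 0.36, 0.22 and 0.27, against 0.31, 0.19, 0.17 and 0.20 for all genes. These are descriptions, and no test was run on them.

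**Figure D4:**
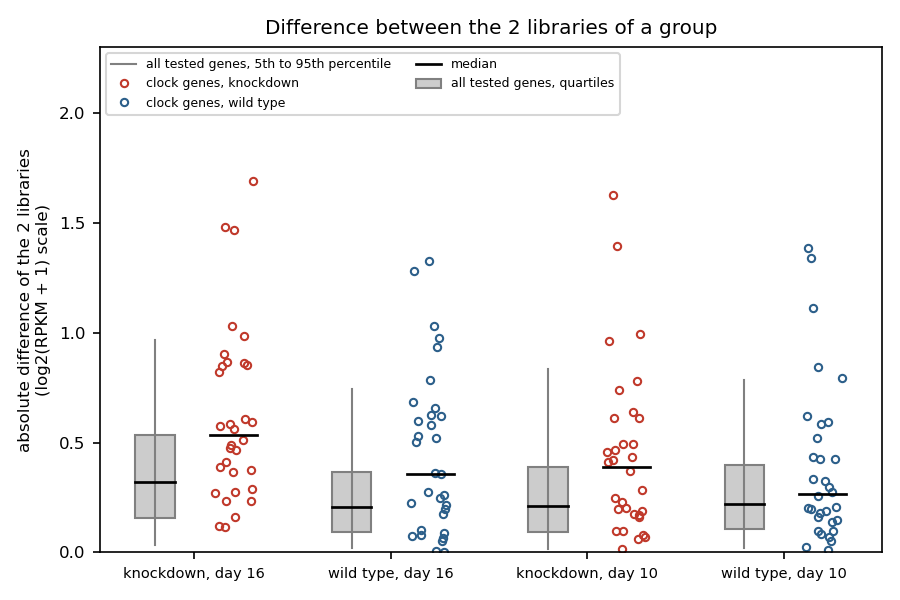
Absolute difference between the 2 libraries of a group on the log2(RPKM + 1) scale, for the 32 tested clock genes (open circles, red for knockdown and blue for wild type) and all 17467 tested genes (grey box for the quartiles, line from the 5th to the 95th percentile). Black bars are medians; in all 4 groups the bar of the clock genes lies above that of all genes, by the least in day 10 wild type (0.27 against 0.22).

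Averaged over the 4 groups, 25 of the 32 clock genes differed between libraries by more than the median tested gene, and 10 of 32 lay above the 90th percentile. These percentiles rank against tested genes of every level. With a mean of at least 5 RPKM, 2 of 20 clock genes differed by 1 log2 unit or more in each day 16 group (all genes 3.24% in knockdown and 1.52% in wild type). In each day 10 group 0 of 20 did (all genes 1.90% and 1.65%). The widest gap was that of RVE2 (AT5G37260), a MYB-like gene of the REVEILLE family, which lay at the 99.3 percentile. RVE2 had 1.52 and 7.14 RPKM in day 16 knockdown, 1.95 and 6.17 RPKM in day 16 wild type, 2.28 and 9.13 RPKM in day 10 knockdown, and 3.31 and 5.46 RPKM in day 10 wild-type libraries. Within each group its libraries were further apart than the 2 genotype means at either age. BOA and CDF1 followed at the 98.7 percentile, then LNK1 (97.0), RVE7 (95.9) and JMJD5 (95.2), with LNK4, LNK2, CDF3 and COL1 also above the 90th.

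The gaps were not all in one direction. JMJD5 (AT3G20810) had 23.3 and 47.0 RPKM in day 16 knockdown and 26.9 and 56.0 RPKM in day 16 wild type, so replicate 2 was the higher in both. RVE7 (AT1G18330), another REVEILLE gene, had 3.0 and 1.71 RPKM in day 16 knockdown and 3.11 and 1.61 RPKM in day 16 wild type, with replicate 1 the higher in both. At day 10 RVE7 had 5.60 and 2.31 RPKM in knockdown but 3.28 and 5.59 RPKM in wild type, with the order turned. The narrowest gaps were those of LKP2, RVE4, PRR3 and LUX, at the 18.4, 23.9, 27.1 and 32.9 percentiles. Knockdown day 16 replicate 2 held the highest value of 9 of the 32 genes and wild-type day 16 replicate 1 that of 7, among them PRR5, GI, FKF1, ZTL and ELF3. Knockdown day 16 replicate 1 held the lowest value of 9 genes, and of 4 after median-of-ratios scaling. The labels give 1 sampling time for all libraries, and how the exact time or tissue of each library bears on these gaps was not tested.

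**Figure D5:**
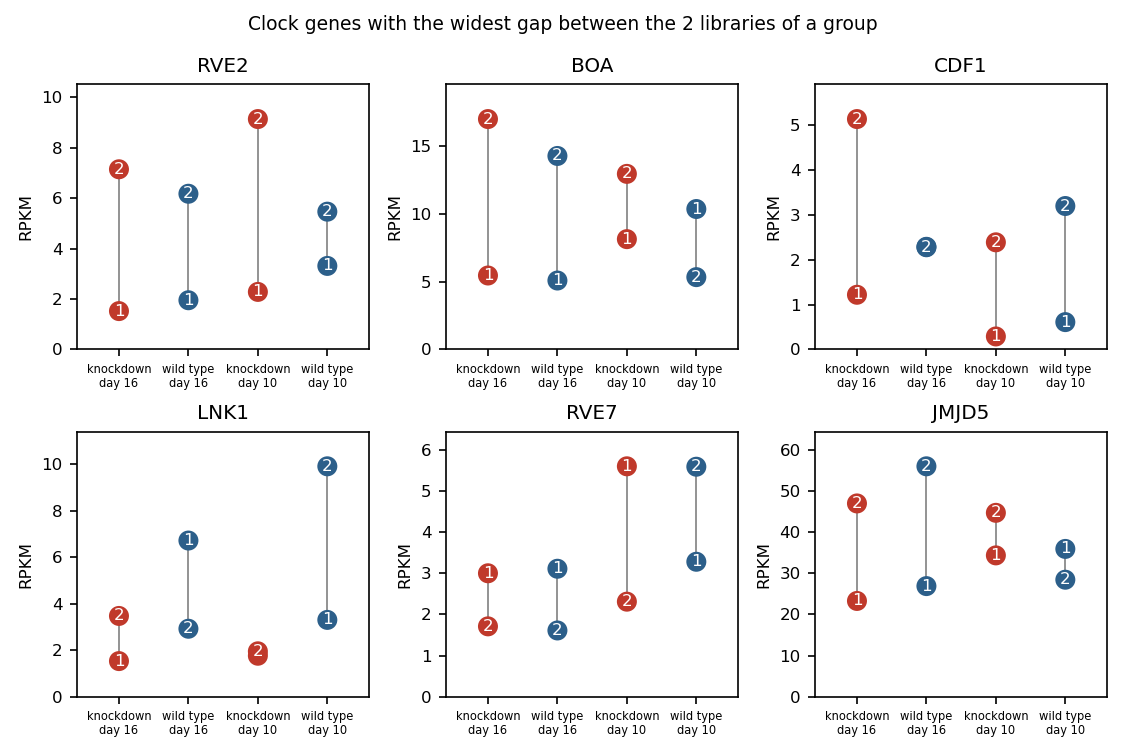
RPKM of the 6 clock genes with the widest mean difference between the libraries of a group, 1 panel per gene with its own axis from 0, red for knockdown and blue for wild type, and the replicate number inside each point. In RVE2 the libraries of day 16 knockdown lie at 1.52 and 7.14 RPKM and those of day 16 wild type at 1.95 and 6.17 RPKM, a wider span within each group than between the genotypes.

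A second list of 50 clock and photoperiod genes (photoreceptors, COP1 and the SPA family, further COL, BBX, FBH, NF-Y and PIF genes and clock cofactors) was read for comparison, and 47 of them were tested. None passed in any of the 6 contrasts, 0 of 47 each. Between the genotypes, 1 of 47 had an unadjusted p under 0.05 at day 16 (background 6.37%), 2 at day 10 (6.66%) and 5 for the mean of both ages (12.0%), shares below those of all genes. Those with the smallest p were picked after their values were seen. AT2G34140 is CDF4, a Dof-type zinc finger gene of the CDF family outside the 38 genes. It had 0.94 and 1.06 RPKM in day 16 knockdown, against 0.26 and 0.32 RPKM in wild type. At day 10 it had 1.45 and 2.53 RPKM in knockdown, against 0.95 and 0.05 RPKM in wild type. The groups did not overlap at either age, and the log2 fold change for the mean of both ages was 0.84 ± 0.242 (SE; limma adjusted p = 0.257). The authors' deposited tables list it as higher at both ages, with folds of 3.76 at day 16 (p = 0.04) and 3.91 at day 10 (p = 0.02). NF-YC4, a subunit of the NF-Y complex that works with CO, had 38.4 and 33.3 RPKM in day 16 knockdown, against 30.8 and 29.7 RPKM in wild type, and at day 10 48.7 and 44.7 RPKM in knockdown, against 36.6 and 30.5 RPKM in wild type. Its fold change for the mean of both ages was 0.35 ± 0.116 (SE; limma adjusted p = 0.302).

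For age, the smallest p-values of that list in the knockdown line were those of FBH4, CAT3, PIF3 and NF-YC4, and in wild type those of CAT3, PIF3, PIF7 and FBH4. FBH4, a bHLH activator of CO, had 3.21 and 2.90 RPKM at day 16 and 6.75 and 5.38 RPKM at day 10 in the knockdown line (log2 fold change -0.80; limma adjusted p = 0.284). In wild type FBH4 had 4.40 and 3.44 RPKM at day 16 and 6.17 and 5.45 RPKM at day 10 (-0.47; limma adjusted p = 0.673). The ages did not overlap in either genotype. CAT3, a catalase whose transcript is under clock control, had 886 and 1265 RPKM at day 16 and 736 and 755 RPKM at day 10 in the knockdown line (0.51; limma adjusted p = 0.337), and 1014 and 933 RPKM at day 16 and 713 and 739 RPKM at day 10 in wild type (0.42; limma adjusted p = 0.575). PIF3, a phytochrome-interacting factor, had 8.17 and 17.7 RPKM at day 16 and 3.85 and 8.32 RPKM at day 10 in the knockdown line (0.96; limma adjusted p = 0.478), and 9.85 and 11.4 RPKM at day 16 and 5.32 and 4.65 RPKM at day 10 in wild type (0.96; limma adjusted p = 0.591). PIF7 had 2.59 and 1.19 RPKM at day 16 and 3.58 and 4.12 RPKM at day 10 in wild type (-0.79; limma adjusted p = 0.670), and NF-YC4 had a fold change of -0.37 in the knockdown line (limma adjusted p = 0.571).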

How the data were processed

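mRNA was sequenced in 8 libraries of shoot apices (strand-specific kit and trizol extraction, per the labels' protocols). The authors deposited RPKM values per locus, per the file headers; the file's name says RPM, but low values step by 1 read over exon length, so the limits, planned for RPM, apply to RPKM. Per the submitters' processing notes the build was TAIR10; aligner, counter and strand handling were not given in the sources used here. Also deposited by the authors were 4 tables of changed genes with a linear fold (a ratio for higher genes), a signed score for lower genes (minus fold) and a p-value, whose test was not given in the sources used here. Depth per library, estimated from those steps, was 15.46 to 18.16 M reads.

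Groups came from the sample titles. limma 3.58.1 (R 4.3.3) with an intensity trend was run on log2(RPKM + 1), 1 coefficient per group, 4 residual and 5.8 prior degrees of freedom, with 6 contrasts; it was tested on simulated data. Fold changes on this scale understate those of low genes. Alternatives were other pseudocounts (0.25 and 4), no filter or at least 5 RPKM, median-of-ratios scaling, quantile normalization, only the groups compared, a replicate block and leaving out each library. Full values were given for the 4 genes with the smallest p per genotype contrast. Positions, promoters and exon overlaps came from RefSeq TAIR10.1. Members and lists were chosen with earlier results of these data known.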

Additional observations from a re-analysis of the deposited data

How the results depend on the processing

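No clock or photoperiod gene passed in any of the 6 contrasts under any alternative run. The clock genes with the smallest p were PRR5, PRR7, GI, FKF1, LKP2, ELF3 and LNK1 for genotype and PIF4 and CDF2 for age. Their log2 fold changes kept their sign under the alternatives run on them. These fits covered only the contrasts in which a gene's p was among the smallest, which for GI was day 10. The log2 fold change of BOA at day 16 did not keep its sign (-0.58 without knockdown day 16 replicate 2 and -0.50 without wild-type day 16 replicate 1, in a range up to 0.90). The limma adjusted p of PRR5 for the mean of both ages ranged from 0.170 to 0.818 and that of LNK1 at day 10 from 0.372 to 1.00. The number of all genes that passed moved more. At day 16 (20 genes) it was 11 without a filter, 12 after quantile normalization and 11 to 19 when a library was left out; at day 10 (13 genes) it was 7 to 26 when a library was left out, 7 without wild-type day 10 replicate 2 and 26 without knockdown day 10 replicate 2. For the mean of both ages (43 genes) it was 24 with no filter and 18 to 48 when a library was left out. For age in the knockdown line (47 genes) it was 15 with no filter, 27 with only the groups compared and 16 to 53 when a library was left out. For age in wild type (39 genes) it was 12 with no filter, 18 with median-of-ratios scaling, 22 with only the groups compared and 7 to 54 when a library was left out. The cause was not tested. The labels do not say whether equal replicate numbers share a batch. Same-numbered libraries deviated together with r of -0.24 between the wild-type groups of the 2 ages and of 0.09 to 0.33 between all other pairs of groups. These values cannot decide whether the numbers pair the samples. With the replicate number as a block 24 genes passed at day 16, 20 at day 10, 68 for the mean, 109 for age in the knockdown line and 89 for age in wild type, and 0 clock genes. With the numbers crossed in wild type, added after the data were seen, 158 genes passed for age. A lone library left in a group was assumed to vary like the others. AT2G34140, CDF2 and PIF7 were not tested at the 5 RPKM limit. At these depths the 6 clock genes below the filter cannot be compared.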

Other observations

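Over the authors' 4 deposited tables of changed genes, 949 listed loci had a ratio of mean RPKM that could be formed, and for 826 of them it lay within 1.5 times of the authors' deposited fold. Of the other 123, the fold was within 1.5 times of the ratio of the next locus in ID order for 101, and for 17 the next locus had 0 in the denominator. BOA and LNK1, described above, are among them. So is ASG4, a MYB-like gene of the second list: the authors' deposited table of higher genes at day 16 lists AT1G01510 at a fold of 20.17 (p = 0.03), whose own ratio was 0.968, while ASG4, the next locus, had 0.08 and 0.80 RPKM in knockdown and 0.00 and 0.04 RPKM in wild-type libraries, a ratio of 22.0. The cause was not tested.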
